A study of Mus musculus with 9 samples.

Results

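The 35 genes described here are cadherin superfamily adhesion genes of the mouse: 5 classical type I cadherins, 11 type II cadherins, the GPI-anchored Cdh13, 9 non-clustered protocadherins, 3 Celsr, 4 Fat and 2 Dachsous cadherins. They were taken by gene symbol from a table of 54532 genes, without use of their levels, and each of the 35 symbols matched 1 gene. Of the 35, 32 passed a filter on low counts and were tested. Cdh9, Cdh12 and Pcdh20 did not pass it.

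RNA came from mouse neural tube organoids, which are small neuroepithelial cysts grown from single R1 embryonic stem cells in Matrigel. All carried the FoxA2-Venus genotype, a fluorescent reporter of the floor plate factor Foxa2, and were separated in a cell sorter through a GFP filter set. Each of the 3 groups had 3 biological replicates and shared the genotype, the N2B27 base medium and the time of collection, 66 h after the medium change on Day 2. GFP- cells and GFP+ cells from medium with all-trans retinoic acid form the groups RA GFP- and RA GFP+, and GFP+ cells from medium with SAG form the group SAG GFP+. SAG is an agonist of Smoothened, the transducer of hedgehog signals, and its dose is not given in the sources used here. The RA dose is stated both as 250 nM and as 250 µM. GFP- cells from SAG medium were not analysed here, so SAG GFP+ differed from RA GFP+ in the medium and from RA GFP- in both the medium and the sort. Whether SAG medium also held RA is not stated, so adding SAG and leaving out RA cannot be told apart. The organoids came from 1 parental cell line, and the sources do not say whether replicates were separate seedings.

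Cadherins are transmembrane proteins whose extracellular cadherin repeats bind those of neighbouring cells in the presence of calcium. Classical cadherins link through catenins to actin, and a switch from Cdh1 (E-cadherin) to Cdh2 (N-cadherin) is a textbook feature of neural plate formation, while type II cadherins divide motor neurons and progenitor domains into groups that sort together. Celsr proteins are core planar cell polarity components, and Fat and Dachsous cadherins are large receptor and ligand pairs that pass on polarity and growth cues.

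Total counts ran from 25281871 to 29763765 per library. Levels are given in CPM, counts scaled to a library's TMM-adjusted total, always in the order of replicates 1, 2 and 3. Where a value is given without 1 library, that library is named by its group and replicate. Foxa2, the gene behind the sort, stood at 2.47, 1.33 and 2.51 CPM in RA GFP-, at 184, 157 and 133 CPM in RA GFP+, and at 326, 212 and 205 CPM in SAG GFP+, in the direction of the sort in all 9 libraries. SAG GFP+ differed from RA GFP+ in Foxa2 by a log2 fold change of 0.65 (adjusted p = 0.0497), in a range of 0.00085 to 0.147. That call ended on leaving out RA GFP- replicate 3 (0.0519), any of the 3 RA GFP+ libraries (0.0574, 0.135 and 0.147) or SAG GFP+ replicate 1 (0.42, adjusted p = 0.132) or 2 (0.0549), and with library totals alone (0.0583). A pair of libraries stood apart within their groups for these genes. SAG GFP+ replicate 1 lay over 1.5-fold above both other SAG libraries for 8 of the 32 tested members (Cdh1, Cdh3, Cdh7, Pcdh1, Pcdh10, Pcdh17, Pcdh19 and Fat4) and over 1.5-fold below both for 5. RA GFP- replicate 1 lay over 1.5-fold below both other RA GFP- libraries for 12 members, among them Celsr2, Celsr3, Fat3, Fat4, Dchs1 and Dchs2. In that library the 389 tested genes with a transcript over 10 kb deviated from the mean of both other RA GFP- libraries. Their median deviation was -0.63 on the log2 scale, against 0.01 for the other genes, and 11 members are of that length. Its part in the results was not tested, and values without either library are given where they change a call or move a called value by over 1.5 times.

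**Figure D1:**
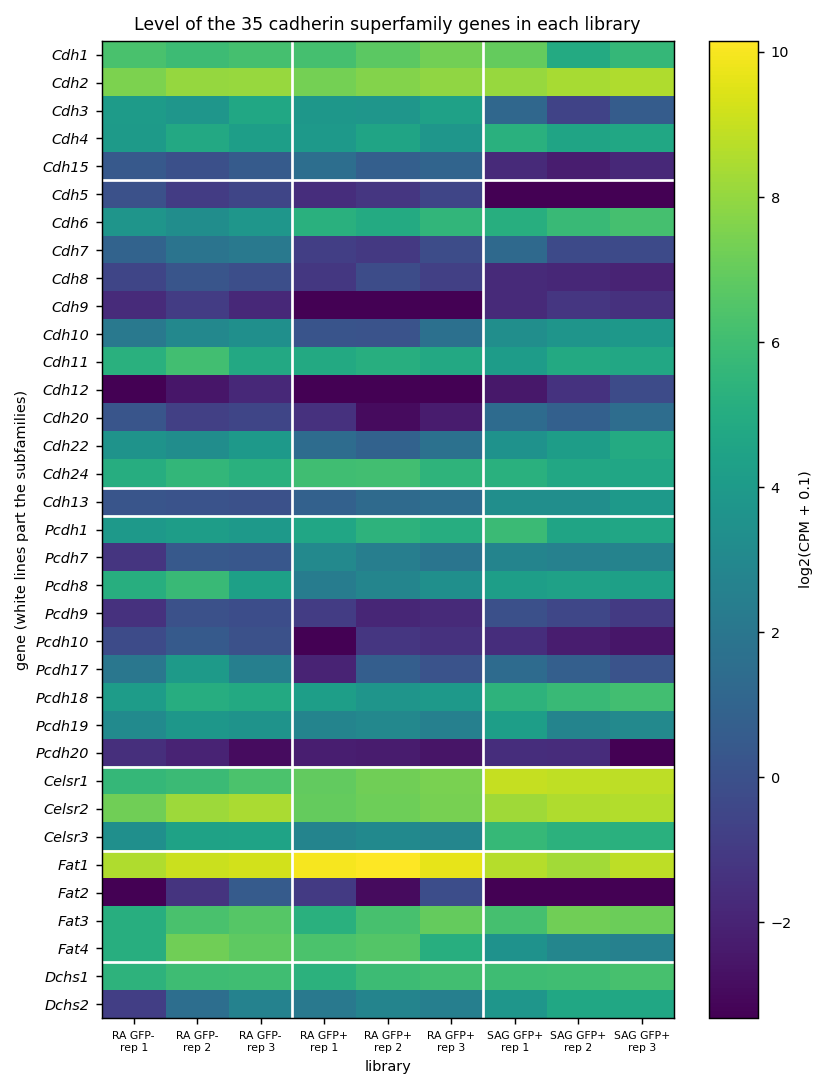
Level of each of the 35 genes (rows, parted by subfamily) in each of the 9 libraries (columns, parted by group), as colour on a log2 scale of CPM. Fat1, Cdh2 and Celsr2 were at 124 CPM or more in every library, while Cdh9, Cdh12 and Pcdh20 stayed under 1 CPM in every library.

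Each comparison changed members in both directions. In RA GFP+ against RA GFP-, which asks what accompanies FoxA2-Venus within RA organoids, 6 of the 32 tested members were higher and 8 lower. Of all 16772 tested genes, 16.9% were called in this comparison, 8.49% higher and 8.43% lower. In SAG GFP+ against RA GFP+, which compares sorted GFP+ cells from the 2 media, 11 were higher and 6 lower, where 24.5% of all genes were called, 9.78% higher and 14.8% lower. In SAG GFP+ against RA GFP-, 9 were higher and 7 lower, where 28.5% of all genes were called, 12% higher and 16.5% lower. The groups did not overlap for 16, 19 and 17 of the tested members in these comparisons, against 36.4%, 42.9% and 41.1% of all tested genes. The median log2 fold change of the tested members was -0.48, 0.67 and 0.11, and that of all tested genes -0.018, -0.017 and -0.009. A call means an adjusted p under 0.05 in edgeR's quasi-likelihood test with Benjamini-Hochberg adjustment over all tested genes. With the replicate number as a block, 19 members were called in RA GFP+ against RA GFP-, including the same 14. The comparisons share libraries, so a member called in more than 1 of them is not independent evidence, and in sorted bulk samples fewer cells of a type and less RNA per cell cannot be told apart.

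**Figure D2:**
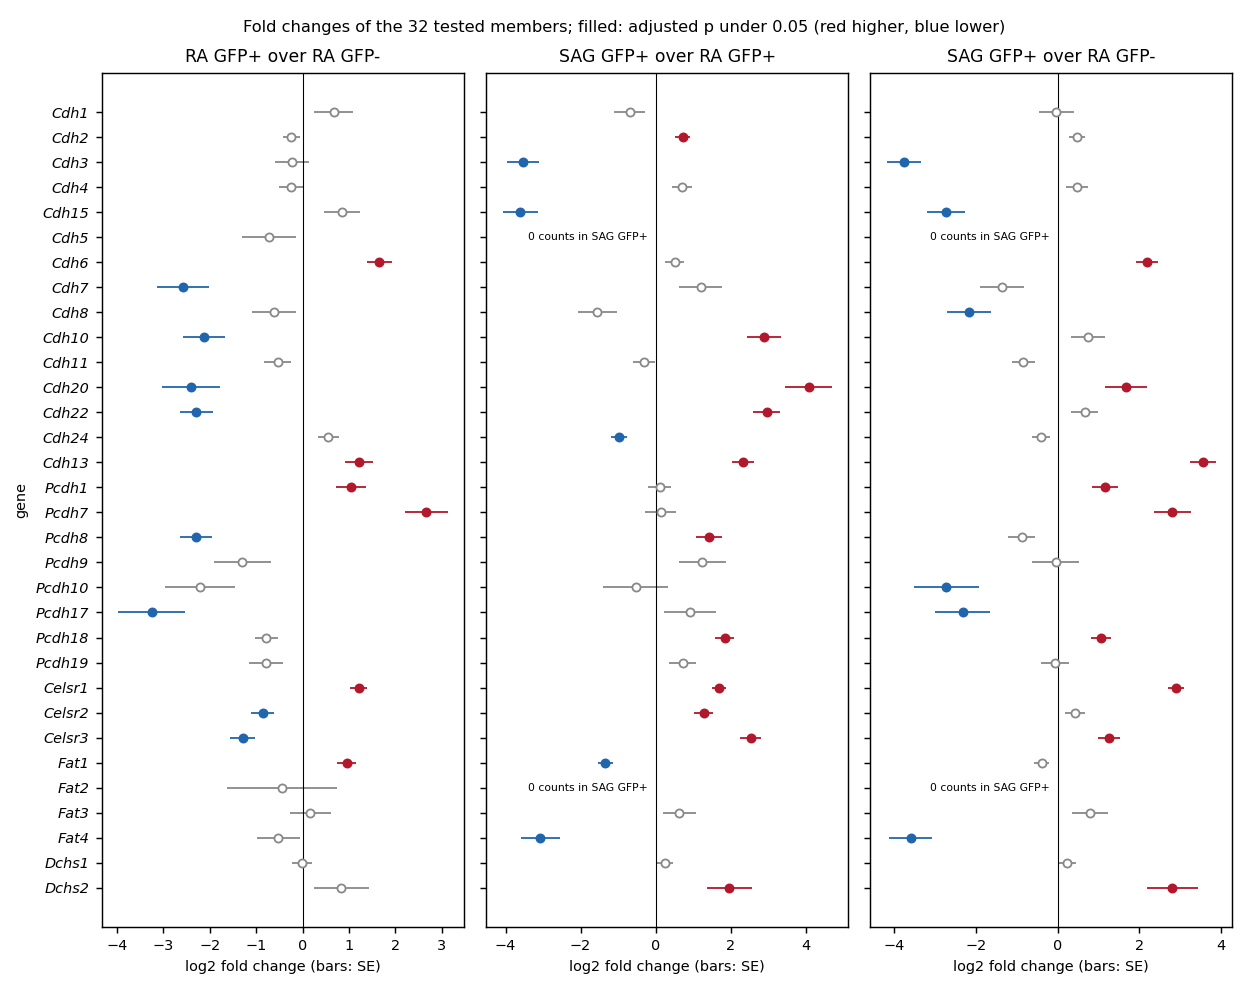
Log2 fold change with its standard error (horizontal axis) of the 32 tested members (rows) in the 3 comparisons (panels). Filled points passed the test: 6 higher and 8 lower, 11 higher and 6 lower, and 9 higher and 7 lower, with Cdh5 counted among the lower genes in the last 2 panels as a gene at 0 counts in SAG GFP+.

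To compare levels between genes, CPM were divided by the summed exon length in kb. Summed over the 35 genes, this per-length level was 129.5 to 189.2 in the RA GFP- libraries, 174.4 to 207.6 in RA GFP+ and 210.0 to 236.0 in SAG GFP+. Fat1 held the largest share of it in RA GFP+ (32.5% ± 5.65, SD, n = 3) and in RA GFP- (19.2% ± 1.23). In SAG GFP+ the largest share was that of Celsr1 (19.4% ± 1.57), which held 3.44% in RA GFP- and 6.86% in RA GFP+. Cdh2 came next in each group, with 17.3% ± 0.129 in RA GFP-, 12.7% ± 1.81 in RA GFP+ and 18.3% ± 2.67 in SAG GFP+. That order depends on the length used: per kb of the longest transcript Cdh2 held 24.3% in RA GFP- and 25.5% in SAG GFP+, above Fat1 (17.1%) and Celsr1 (16.4%). The 3 Celsr genes together held 14.3%, 17.2% and 21.0% in the RA GFP- libraries, 12.8%, 12.9% and 15.3% in RA GFP+, and 33.8%, 37.6% and 33.0% in SAG GFP+. The 4 Fat genes held 21.3%, 25.1% and 26.5% in RA GFP-, 40.1%, 39.4% and 29.9% in RA GFP+, and 13.3%, 13.1% and 15.1% in SAG GFP+. Thus the Celsr share was higher in each SAG library than in any RA library, and the Fat share lower. Shares depend on each other, and the summed per-length level of the Fat genes in SAG GFP+ (27.59 to 35.61) overlapped that in RA GFP- (27.64 to 50.01). The sum of 129.5 and the lowest RA GFP- shares of both subfamilies came from RA GFP- replicate 1, the library with low levels of long genes.

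**Figure D3:**
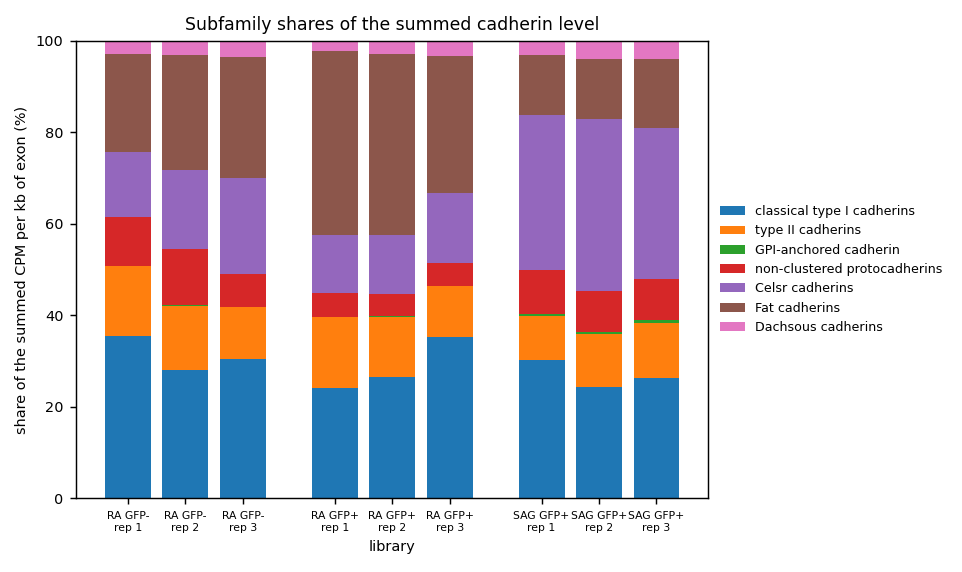
Share of the summed CPM per kb of exon (vertical axis, %) held by each of the 7 subfamilies (colours) in each of the 9 libraries (bars). Celsr genes took 33.0 to 37.6% of the SAG GFP+ bars and at most 21.0% of the RA bars, and Fat genes took 29.9 to 40.1% of the RA GFP+ bars.

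Cdh6 was higher in both GFP+ groups than in RA GFP-, while Pcdh8, Celsr2 and Celsr3 shared a pattern with the lowest mean in RA GFP+. To set these patterns side by side, the proximal promoters of these 4 members with called changes are shown. Other members with the same patterns, among them Cdh10, Cdh20, Cdh22 and Pcdh7, are not shown. Windows of Cdh10, Cdh20, Cdh22 and Pcdh7 held none of the motifs searched below. Each is the 250 bases before a RefSeq start on GRCm38.p6, written 5′ to 3′ on the strand of the gene. Capitals mark TATAAA in Pcdh8 and CAGGTG, which is CACCTG on the other strand, in Celsr2, and the capitals do not overlap another searched motif.
Cdh6, chr15:13173676-13173925, minus strand: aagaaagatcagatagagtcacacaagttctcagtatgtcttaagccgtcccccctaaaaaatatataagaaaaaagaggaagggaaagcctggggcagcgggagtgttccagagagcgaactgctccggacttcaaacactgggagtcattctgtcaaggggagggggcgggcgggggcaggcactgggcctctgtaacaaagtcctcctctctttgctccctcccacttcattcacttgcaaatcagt
Pcdh8, chr14:79771313-79771562, minus strand: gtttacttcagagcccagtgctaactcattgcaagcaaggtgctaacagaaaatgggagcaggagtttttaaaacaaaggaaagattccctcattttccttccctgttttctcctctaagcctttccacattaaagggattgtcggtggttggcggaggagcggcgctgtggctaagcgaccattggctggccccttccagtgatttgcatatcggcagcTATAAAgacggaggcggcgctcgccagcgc
Celsr2, chr3:108415580-108415829, minus strand: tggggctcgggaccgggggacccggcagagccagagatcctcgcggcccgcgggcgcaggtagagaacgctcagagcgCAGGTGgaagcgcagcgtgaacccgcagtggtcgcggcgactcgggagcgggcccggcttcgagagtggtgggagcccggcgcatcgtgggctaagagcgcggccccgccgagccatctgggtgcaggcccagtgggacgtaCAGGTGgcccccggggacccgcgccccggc
Celsr3, chr9:108825795-108826044, plus strand: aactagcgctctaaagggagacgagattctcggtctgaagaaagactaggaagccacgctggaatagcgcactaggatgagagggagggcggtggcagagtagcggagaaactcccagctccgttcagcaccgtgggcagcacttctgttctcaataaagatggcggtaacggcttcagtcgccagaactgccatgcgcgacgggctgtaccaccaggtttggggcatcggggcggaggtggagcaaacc

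Promoters on chromosome 18, which holds Cdh2 and Pcdh1, were left out of the search and of the windows of all genes. Windows were used for 25 of the 35 members, 28 windows in all. The E-box CACCTG, searched on both strands, occurred in 4 of the 28, of Cdh7, Celsr2 and Fat1. It occurred in 17.22% of all 32851 windows of this length that were kept. The FOXA motif, searched as TGTTTAC, with the further spellings TATTTAC or else TGTTTGC, occurred in 1 of the 28 (Fat1) against 9.73% of all windows, the retinoic acid half-site AGGTCA in 1 (Fat2) against 14.02%, and the GLI motif GACCACCCA in 0 against 0.23%. TATAAA, added to the search after the sequences were seen, occurred in 1 (Pcdh8) against 12.37%. Such matches describe letters and not binding.

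Among the classical type I cadherins, Cdh2 and Cdh1 had the highest levels and Cdh3 and Cdh15 the largest changes. Of the 5, 0 were called in RA GFP+ against RA GFP-, where Cdh3, Cdh4 and Cdh15 differed by -0.23, -0.24 and 0.86 on the log2 scale (adjusted p = 0.729, 0.608 and 0.164). The RA groups did not overlap for Cdh15. With the replicate block, Cdh1 was called (0.61, adjusted p = 0.0301). Cdh3 (P-cadherin) and Cdh15 fell in SAG GFP+ against each RA group. Cdh3 stood at 17.0, 13.5 and 25.6 CPM in RA GFP-, at 13.9, 13.5 and 20.5 CPM in RA GFP+, and at 2.16, 0.562 and 1.40 CPM in SAG GFP+. The 3 SAG libraries lay below all 6 RA libraries, with log2 fold changes of -3.54 against RA GFP+ (SE 0.42, adjusted p = 0.000131) and -3.77 against RA GFP- (SE 0.42, adjusted p = 6.96e-05). Cdh15 (M-cadherin, known from muscle) stood at 1.24, 0.876 and 1.37 CPM in RA GFP-, at 2.86, 1.58 and 1.92 CPM in RA GFP+, and at 0.204, 0.112 and 0.195 CPM in SAG GFP+. Its SAG libraries too lay below all RA libraries, with log2 fold changes of -3.61 against RA GFP+ (SE 0.47, adjusted p = 0.000247) and -2.74 against RA GFP- (adjusted p = 0.00131).

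Cdh3 (ENSMUSG00000061048, chromosome 8, 106510891 to 106557297, GRCm38) ends 46.1 kb before the start of Cdh1 (ENSMUSG00000000303, chromosome 8, 106603351 to 106670246) on the same strand, and the ratio of the neighbours' counts differed between the media. The log2 ratio of Cdh3 to Cdh1 counts was -2.2, -2.16 and -1.51 in RA GFP-, -2.39, -2.99 and -2.92 in RA GFP+, and -5.87, -5.71 and -5.13 in SAG GFP+. It was lower in each SAG library than in any RA library, including SAG GFP+ replicate 1, in which Cdh3 and Cdh1 were both highest of the 3.

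Cdh1, the epithelial and pluripotent cell cadherin, varied widely between replicates. Cdh1 stood at 77.9, 60.6 and 72.8 CPM in RA GFP-, at 73.0, 107 and 155 CPM in RA GFP+, and at 127.5, 30.3 and 49.8 CPM in SAG GFP+. The groups overlapped in every comparison because SAG GFP+ replicate 1 lay as high as the RA GFP+ libraries and RA GFP+ replicate 1 within the range of RA GFP-. Cdh1 differed by 0.67 on the log2 scale in RA GFP+ against RA GFP- (SE 0.42, adjusted p = 0.332), and by 0.61 (adjusted p = 0.0301) with the replicate block, with adjusted p from 0.0122 to 0.671 over 15 alternatives. Against RA GFP+, SAG GFP+ differed by -0.69 (adjusted p = 0.265), and by -1.46 (adjusted p = 0.00521) without SAG GFP+ replicate 1, with a range of 0.00521 to 0.61. Against RA GFP- the difference was -0.03 (adjusted p = 0.972), and -0.79 (adjusted p = 0.0614) without that library. The same library was the highest SAG library for the epithelial genes Epcam (55.2 CPM against 19.0 and 21.9) and Cldn6 (24.7 CPM against 5.39 and 9.89) and for the pluripotency gene Pou5f1 (171 CPM against 37.4 and 39.3). Not every gene of the epithelial and pluripotency marker lists was highest there. Krt19 was lowest in that library (1.75 CPM against 5.47 and 13.2). Zfp42, Esrrb, Tcl1 and Utf1 were not highest in it, while the rest of both lists were. Together, 8 epithelial markers summed to 116 to 180 CPM in RA GFP-, 202 to 344 CPM in RA GFP+ and 50.7 to 117 CPM in SAG GFP+, and none of them was at 0 in a group. The part of such cells in the Cdh1 level was not tested.

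Cdh2 stood at 181, 262 and 265 CPM in RA GFP-, at 161, 200 and 240 CPM in RA GFP+, and at 274, 333 and 380 CPM in SAG GFP+. Every SAG library lay above all RA libraries, while the RA groups overlapped. Cdh2 was higher in SAG GFP+ than in RA GFP+ by 0.72 on the log2 scale (SE 0.19, adjusted p = 0.0161). Leaving out RA GFP+ replicate 1 ended this call (0.58, adjusted p = 0.0725), as did leaving out its replicate 2 (0.71, 0.0556) or SAG GFP+ replicate 3 (0.61, 0.0599), with adjusted p from 7.6e-05 to 0.0725 over the alternatives. Against RA GFP- the difference was 0.48 (adjusted p = 0.0758), and 0.62 (adjusted p = 0.0293) without SAG GFP+ replicate 1, with a range of 0.0081 to 0.218. RA GFP+ differed from RA GFP- in Cdh2 by -0.24 (adjusted p = 0.447).

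Per kb of exon, Cdh2 stood at 1.32, 2.45 and 2.06 times Cdh1 in RA GFP-, at 1.25, 1.06 and 0.877 times in RA GFP+, and at 1.22, 6.22 and 4.33 times in SAG GFP+. By this measure RA GFP+ replicate 3 had more Cdh1 than Cdh2. Per kb of the longest transcript Cdh2 exceeded Cdh1 in all 9 libraries, at 1.42 times in that library and at 2.02 and 1.71 times in RA GFP+ replicates 1 and 2, so the order of both genes in that library depends on the length used. The log2 ratio of Cdh1 to Cdh2 counts differed by 0.84 between RA GFP+ and RA GFP- (exact two-sided permutation p = 0.1, n = 3 and 3), by -1.61 between SAG GFP+ and RA GFP+ (exact p = 0.2) and by -0.77 between SAG GFP+ and RA GFP- (exact p = 0.4). Adjusted over these 3 comparisons (Benjamini-Hochberg), the exact permutation p were 0.3, 0.3 and 0.4. With 3 libraries a group this test cannot go below 0.1. Cdh4 (R-cadherin) was at 13.6 to 27.7 CPM in the RA libraries and 23.5 to 37.1 CPM in SAG GFP+, a difference of 0.71 from RA GFP+ (adjusted p = 0.0761) that reached an adjusted p of 0.0387 without RA GFP+ replicate 2 (0.98), in a range of 0.0111 to 0.212, and of 0.47 from RA GFP- (adjusted p = 0.213).

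**Figure D4:**
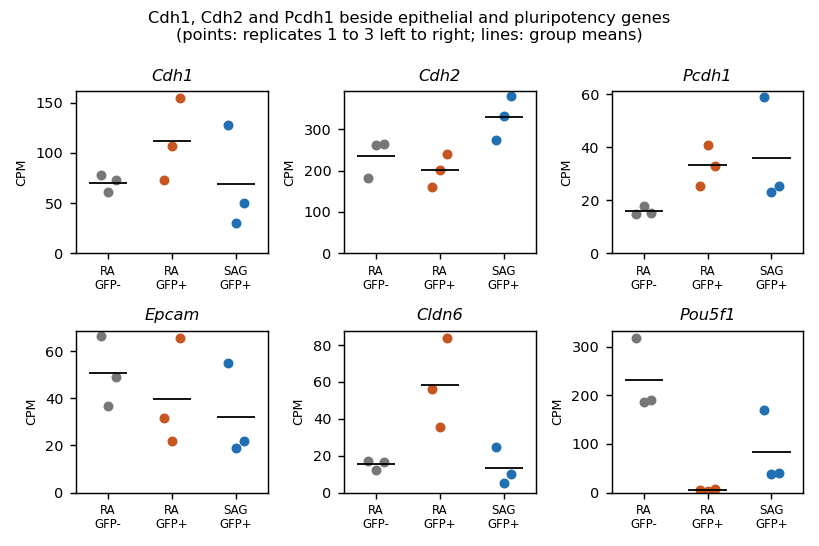
CPM (vertical axes) of Cdh1, Cdh2 and Pcdh1 above the epithelial genes Epcam and Cldn6 and the pluripotency gene Pou5f1, with 1 point per library and a line at the mean of each group. In SAG GFP+, replicate 1 is the highest point for Cdh1 (127.5 CPM), Pcdh1 (58.9 CPM), Epcam, Cldn6 and Pou5f1, and the lowest for Cdh2 (274 CPM).

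Of the 11 type II cadherins, 9 were tested, with 1 higher and 4 lower in RA GFP+ against RA GFP-, 3 higher and 2 lower in SAG GFP+ against RA GFP+, and 2 higher and 2 lower in SAG GFP+ against RA GFP-. Cdh6 (K-cadherin; ENSMUSG00000039385, chromosome 15, 13028701 to 13173675, minus strand), whose promoter is shown above, went with the sort. Cdh6 stood at 12.7, 9.64 and 13.7 CPM in RA GFP-, at 37.9, 29.8 and 46.5 CPM in RA GFP+, and at 34.4, 56.2 and 72.3 CPM in SAG GFP+. All 6 GFP+ libraries lay above the 3 GFP- libraries, and the GFP+ groups overlapped. Cdh6 was higher by 1.66 in RA GFP+ (SE 0.26, adjusted p = 0.00138), a 3.17-fold difference, and by 2.18 in SAG GFP+ (SE 0.27, adjusted p = 0.000131), each against RA GFP-. Between the GFP+ groups it differed by 0.51 (adjusted p = 0.17), and by 0.78 (adjusted p = 0.0208) without SAG GFP+ replicate 1, in a range of 0.0208 to 0.547.

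Cdh10, Cdh20 and Cdh22, type II cadherins of neurons and neural progenitors, were lowest in RA GFP+. Cdh22 stood at 12.1, 9.49 and 15.4 CPM in RA GFP-, at 2.59, 1.78 and 3.21 CPM in RA GFP+, and at 11.6, 17.8 and 29.6 CPM in SAG GFP+. RA GFP+ lay below both other groups, which overlapped, with log2 fold changes of -2.29 against RA GFP- (SE 0.36, adjusted p = 0.00128) and 2.96 in SAG GFP+ against RA GFP+ (SE 0.37, adjusted p = 0.000171). SAG GFP+ differed from RA GFP- in Cdh22 by 0.67 (adjusted p = 0.155), and by 0.97 (adjusted p = 0.0302) without SAG GFP+ replicate 1, in a range of 0.0302 to 0.609.

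Cdh10 stood at 4.20, 7.70 and 10.4 CPM in RA GFP-, at 1.02, 1.01 and 3.03 CPM in RA GFP+, and at 10.1, 13.1 and 14.4 CPM in SAG GFP+. Again RA GFP+ lay below both other groups, of which SAG GFP+ replicate 1 and RA GFP- replicate 3 overlapped. Cdh10 was lower in RA GFP+ than in RA GFP- (-2.13, SE 0.45, adjusted p = 0.00736) and higher in SAG GFP+ than in RA GFP+ (2.89, SE 0.46, adjusted p = 0.000914). Without RA GFP+ replicate 3 these values were -2.87 and 3.62, and adjusted p ran from 3.44e-07 to 0.037 and from 1.25e-11 to 0.00552. Against RA GFP-, SAG GFP+ differed by 0.75 (adjusted p = 0.207).

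Cdh20 stood at 1.06, 0.495 and 0.609 CPM in RA GFP-, at 0.274, 0.0336 and 0.105 CPM in RA GFP+, and at 2.53, 1.69 and 2.76 CPM in SAG GFP+. The 3 groups did not overlap, in the order RA GFP+, RA GFP-, SAG GFP+. Cdh20 was higher in SAG GFP+ than in RA GFP+ by 4.08 (SE 0.62, adjusted p = 0.000647), and by 4.99 without RA GFP+ replicate 1, with adjusted p from 1.06e-08 to 0.00374. In RA GFP+ against RA GFP- it was lower by a log2 fold change of -2.4 (adjusted p = 0.0217), in a range of 0.00327 to 0.0865. Leaving out RA GFP- replicate 1 (-2, 0.0801) or RA GFP+ replicate 2 (-1.92, 0.0865) or 3 (-2.24, 0.072) ended this call, and the value was -3.31 without RA GFP+ replicate 1. It was higher in SAG GFP+ than in RA GFP- by 1.68 (adjusted p = 0.0315), in a range of 0.00958 to 0.105. That call ended on leaving out RA GFP- replicate 2 (0.105) or 3 (0.0798), or SAG GFP+ replicate 1 (0.0517) or 3 (0.0957).

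The summed level of marker genes of neurons was likewise lowest in RA GFP+, though not every marker was. The 8 neuronal markers summed to 289 to 412 CPM in RA GFP-, 80.4 to 91.1 CPM in RA GFP+ and 353 to 598 CPM in SAG GFP+, with 7 lower and 1 higher in RA GFP+ against RA GFP- and 7 higher and 0 lower in SAG GFP+ against RA GFP+. The summed level of 7 neural progenitor markers was 1070 to 1210, 400 to 608 and 1100 to 1230 CPM, with 6 of 7 lower in RA GFP+ against RA GFP- and 6 higher and 1 lower in SAG GFP+ against RA GFP+. In SAG GFP+ against RA GFP-, 3 neuronal markers were higher and 1 lower, and 2 progenitor markers were higher and 3 lower. Single markers departed from the order of the sums. Isl1 was lowest in RA GFP- (0.989, 1.14 and 0.799 CPM), and Pax6 had its lowest mean in SAG GFP+ (14.5, 5.58 and 6.74 CPM). None of these 15 genes was at 0 in a group, and their part in the results for Cdh10, Cdh20 and Cdh22 was not tested.

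Cdh7 was lower in RA GFP+ than in RA GFP-, and Cdh24 lower in SAG GFP+ than in RA GFP+. Cdh7 stood at 1.84, 3.54 and 4.22 CPM in RA GFP-, at 0.470, 0.370 and 0.767 CPM in RA GFP+, and at 2.32, 0.712 and 0.701 CPM in SAG GFP+. RA GFP- lay above RA GFP+, and SAG GFP+ replicate 1 stood apart from the other SAG libraries. Cdh7 was lower in RA GFP+ than in RA GFP- (-2.57, SE 0.56, adjusted p = 0.00875). SAG GFP+ differed from RA GFP+ by 1.20 (adjusted p = 0.147) and from RA GFP- by -1.36 (adjusted p = 0.0748), and without SAG GFP+ replicate 1 by 0.42 (adjusted p = 0.567) and -2.15 (adjusted p = 0.00766), in ranges of 0.0968 to 0.567 and 0.00766 to 0.229. Cdh24 stood at 33.6, 48.9 and 37.0 CPM in RA GFP-, at 64.6, 67.7 and 43.6 CPM in RA GFP+, and at 38.1, 26.9 and 24.7 CPM in SAG GFP+. SAG GFP+ lay below RA GFP+, whose replicate 3 fell within RA GFP-. Cdh24 was lower in SAG GFP+ than in RA GFP+ (-0.97, SE 0.22, adjusted p = 0.00781). In RA GFP+ against RA GFP- it differed by 0.56 (adjusted p = 0.11), by 0.55 with the replicate block (adjusted p = 0.0101) and by 0.74 without RA GFP+ replicate 3 (adjusted p = 0.0427), in a range of 0.0101 to 0.335.

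Cdh5 (VE-cadherin), the defining cadherin of endothelium, was low in the RA groups and had 0 counts in SAG GFP+. Cdh5 stood at 0.918, 0.419 and 0.609 CPM in RA GFP- (53 counts in all) and at 0.235, 0.336 and 0.593 CPM in RA GFP+ (33 counts). Against 3 counts over the group, SAG GFP+ was at least 10.1-fold lower than RA GFP+ (adjusted p = 0.00382) and at least 16.8-fold lower than RA GFP- (adjusted p = 0.00138), a floor for counting error only. The RA groups overlapped (-0.73, adjusted p = 0.454). The summed level of 8 endothelial markers was 50.1 to 75.8 CPM in RA GFP-, 30 to 36.3 CPM in RA GFP+ and 4.83 to 5.42 CPM in SAG GFP+, with Emcn at 0 in RA GFP- and SAG GFP+ and 5 of 7 tested genes lower in SAG GFP+ against RA GFP+. Pecam1, which pluripotent cells also express, made up much of that sum in RA GFP-, at 59.5, 40.7 and 68.4 CPM. The part of endothelial cells in the Cdh5 result was not tested.

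Cdh8 stood at 0.600, 1.07 and 0.837 CPM in RA GFP-, at 0.353, 0.773 and 0.488 CPM in RA GFP+, and at 0.204, 0.187 and 0.156 CPM in SAG GFP+. The SAG libraries lay below all RA libraries, and the call was limited to SAG GFP+ against RA GFP- (-2.17, SE 0.53, adjusted p = 0.00987), with -1.55 against RA GFP+ (adjusted p = 0.0546) and -0.62 between the RA groups (adjusted p = 0.425). Cdh11 (OB-cadherin, a cadherin of mesenchyme) stood between 27.9 and 67.3 CPM in RA GFP-, 28.4 and 34.5 CPM in RA GFP+, and 17.4 and 29.2 CPM in SAG GFP+. Cdh11 passed the test in none of the 3 comparisons (-0.53, -0.30 and -0.84, adjusted p = 0.256, 0.487 and 0.0524), the last reaching 0.0144 without RA GFP- replicate 3 (-1.08), in a range of 0.00113 to 0.257. Cdh9, below the filter on low counts, had 22 counts in RA GFP-, 0 in RA GFP+ and 21 in SAG GFP+. It was at least 7.62-fold lower in RA GFP+ than in RA GFP- and at least 7.64-fold lower than in SAG GFP+, against 3 counts over the group. Without the filter Cdh9 was called in both comparisons (adjusted p = 0.00423 and 0.00321), and likewise by DESeq2 (0.00456 and 0.00354). Cdh12, also below the filter, had 7 counts in RA GFP-, 0 in RA GFP+ and 29 in SAG GFP+, at least 2.42-fold and at least 10.6-fold lower in RA GFP+. Cdh12 was called against SAG GFP+ without the filter (adjusted p = 0.00238) and by DESeq2 (0.00812), and not against RA GFP- (0.119 and 0.177).

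Cdh13 (T-cadherin; ENSMUSG00000031841, chromosome 8, 118283733 to 119324921), which lacks a transmembrane part and is held by a GPI anchor, rose in all 3 comparisons. Cdh13 stood at 1.09, 0.991 and 0.914 CPM in RA GFP-, at 1.73, 2.45 and 2.83 CPM in RA GFP+, and at 10.1, 9.93 and 15.6 CPM in SAG GFP+. The 3 groups did not overlap. Its log2 fold change was 2.34 in SAG GFP+ against RA GFP+ (SE 0.29, adjusted p = 0.000185), a 5.07-fold difference, and 3.56 against RA GFP- (SE 0.32, adjusted p = 1.33e-05). In RA GFP+ against RA GFP- it was 1.22 (SE 0.31, adjusted p = 0.0172). Over the alternatives this adjusted p ran from 0.00265 to 0.0588, and it passed 0.05 on leaving out RA GFP- replicate 2 (1.22, 0.0508) or 3 (1.16, 0.0528), or RA GFP+ replicate 2 (1.19, 0.057) or 3 (1.06, 0.0588).

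Of the 9 non-clustered protocadherins, 8 were tested, with 2 higher and 2 lower in RA GFP+ against RA GFP-, 2 higher and 0 lower in SAG GFP+ against RA GFP+, and 3 higher and 2 lower in SAG GFP+ against RA GFP-. Pcdh7 (BH-protocadherin; ENSMUSG00000029108, chromosome 5, 57717967 to 58133230) went with the sort. Pcdh7 stood at 0.318, 1.26 and 1.14 CPM in RA GFP-, at 8.15, 5.41 and 3.70 CPM in RA GFP+, and at 6.60, 6.07 and 6.35 CPM in SAG GFP+. Both GFP+ groups lay above RA GFP- and overlapped each other. Pcdh7 was higher by 2.67 in RA GFP+ (SE 0.46, adjusted p = 0.00211) and by 2.81 in SAG GFP+ (SE 0.46, adjusted p = 0.00089) than in RA GFP-, and differed by 0.14 between the GFP+ groups (SE 0.41, adjusted p = 0.837). An antisense gene with 8 counts in all overlaps 21.08% of the exon sequence of Pcdh7, which had 1034 counts.

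Pcdh1, a broadly expressed protocadherin of epithelia, stood at 14.9, 18.0 and 15.1 CPM in RA GFP-, at 25.5, 41.1 and 33.1 CPM in RA GFP+, and at 58.9, 23.3 and 25.4 CPM in SAG GFP+. Both GFP+ groups lay above RA GFP-, and SAG GFP+ replicate 1 was the highest library of all. Pcdh1 was higher than in RA GFP- by 1.05 in RA GFP+ (SE 0.32, adjusted p = 0.0423) and by 1.16 in SAG GFP+ (SE 0.32, adjusted p = 0.0187). Leaving out RA GFP- replicate 1 (0.117), 2 (0.078) or 3 (0.105), or RA GFP+ replicate 2 (0.161) or 3 (0.0772), ended the first call, whose adjusted p ran from 5.41e-05 to 0.161. Leaving out RA GFP- replicate 1 (0.06) ended the second, in a range of 5.02e-06 to 0.06. Between the GFP+ groups Pcdh1 differed by 0.11 (adjusted p = 0.836), and by -0.43 (adjusted p = 0.139) without SAG GFP+ replicate 1.

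Pcdh8 (PAPC; ENSMUSG00000036422, chromosome 14, 79766775 to 79771312, minus strand), known from paraxial mesoderm and synapses, was lowest in RA GFP+. Pcdh8 stood at 34.6, 55.4 and 20.0 CPM in RA GFP-, at 4.98, 6.89 and 10.5 CPM in RA GFP+, and at 18.7, 20.6 and 20.4 CPM in SAG GFP+. RA GFP+ lay below both other groups. Pcdh8 was lower in RA GFP+ than in RA GFP- by 4.91-fold (log2 fold change -2.3, SE 0.35, adjusted p = 0.00108) and higher in SAG GFP+ than in RA GFP+ (1.42, SE 0.34, adjusted p = 0.011). SAG GFP+ differed from RA GFP- by -0.88 (adjusted p = 0.0698), and by -1.17 (adjusted p = 0.0126) without RA GFP- replicate 3, in a range of 0.00259 to 0.324. The summed level of 10 markers of mesenchyme and mesoderm had another order, with 23.6 to 31.0 CPM in RA GFP-, 62.4 to 87.6 CPM in RA GFP+ and 38.0 to 59.8 CPM in SAG GFP+. The summed level of the neuronal markers, at 289 to 412 CPM in RA GFP-, 80.4 to 91.1 CPM in RA GFP+ and 353 to 598 CPM in SAG GFP+, was lowest in RA GFP+, as Pcdh8 was. The part of either cell type in the Pcdh8 result was not tested.

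Pcdh18 (a delta protocadherin) stood at 17.4, 33.2 and 29.3 CPM in RA GFP-, at 18.5, 13.1 and 15.0 CPM in RA GFP+, and at 42.5, 56.6 and 67.3 CPM in SAG GFP+. The SAG libraries lay above all RA libraries. Pcdh18 was higher in SAG GFP+ than in RA GFP+ by 1.84 (SE 0.25, adjusted p = 0.000337) and than in RA GFP- by 1.06 (SE 0.25, adjusted p = 0.00765). In RA GFP+ against RA GFP- it differed by -0.78 (adjusted p = 0.0526). That value was -0.75 with the replicate block (adjusted p = 0.0302), -1 without RA GFP- replicate 1 (adjusted p = 0.0132) and -0.77 without SAG GFP+ replicate 1 (adjusted p = 0.035), in a range of 0.00311 to 0.192.

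Pcdh17 and Pcdh10 (OL-protocadherin), delta protocadherins of neurons, were highest in RA GFP-. Pcdh17 stood at 4.03, 16.4 and 5.44 CPM in RA GFP-, at 0.157, 1.55 and 0.977 CPM in RA GFP+, and at 2.57, 1.61 and 0.973 CPM in SAG GFP+. RA GFP- lay above both other groups, and its replicate 2 was far above the other 2. Pcdh17 was lower in RA GFP+ than in RA GFP- (-3.25, SE 0.72, adjusted p = 0.00893), with -2.39 when RA GFP- replicate 2 was left out, -3.89 when RA GFP+ replicate 2 was, and a range of 4.19e-09 to 0.0425. It was lower in SAG GFP+ than in RA GFP- (-2.33, SE 0.68, adjusted p = 0.0249, range 6.38e-06 to 0.137). Leaving out RA GFP- replicate 2 (-1.46, 0.137) or SAG GFP+ replicate 2 (-2.26, 0.0794) or 3 (-2.03, 0.0907) ended that call. Between the GFP+ groups Pcdh17 differed by 0.92 (adjusted p = 0.376), and by 1.57 (adjusted p = 0.229) when RA GFP+ replicate 2 was left out, in a range of 0.171 to 0.705.

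Pcdh10 stood at 0.741, 1.30 and 0.914 CPM in RA GFP-, at 0, 0.336 and 0.279 CPM in RA GFP+, and at 0.244, 0.112 and 0.0779 CPM in SAG GFP+. All 6 GFP+ libraries lay below RA GFP-. Pcdh10 was lower in SAG GFP+ than in RA GFP- (-2.73, SE 0.80, adjusted p = 0.0251, range 0.00497 to 0.0946), and the call ended on leaving out RA GFP- replicate 2 (0.0814) or SAG GFP+ replicate 2 (0.0946) or 3 (0.0944). In RA GFP+ against RA GFP- it differed by -2.21 (adjusted p = 0.0694), and by -2.37 (adjusted p = 0.0207) with the replicate block, in a range of 0.0207 to 0.19.

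Pcdh9 and Pcdh19 passed the test in none of the comparisons. Pcdh9 lay between 0.168 and 0.914 CPM in the 9 libraries and differed by -1.30, 1.25 and -0.05 in the 3 comparisons (adjusted p = 0.185, 0.167 and 0.96). Pcdh19, the X-linked protocadherin of a form of epilepsy, stood at 8.61, 13.9 and 12.2 CPM in RA GFP-, at 6.59, 7.73 and 5.79 CPM in RA GFP+, and at 18.6, 6.59 and 8.06 CPM in SAG GFP+. RA GFP+ lay below RA GFP-, and SAG GFP+ replicate 1 stood above all other libraries. Pcdh19 differed by -0.79 in RA GFP+ against RA GFP- (adjusted p = 0.169), by -0.78 with the replicate block (adjusted p = 0.00984) and by -0.78 without SAG GFP+ replicate 1 (adjusted p = 0.0347), in a range of 0.00984 to 0.364. Pcdh20, below the filter on low counts, had 12, 8 and 12 counts in the 3 groups, and was called in no comparison without the filter or by DESeq2 (lowest adjusted p = 0.778).

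All 3 Celsr genes were higher in SAG GFP+ than in RA GFP+, and in RA GFP+ against RA GFP- 1 was higher and 2 lower. Celsr1 (ENSMUSG00000016028, chromosome 15, 85898929 to 86033777, minus strand), the family member whose mutation can leave the neural tube open, stood at 51.2, 59.1 and 80.8 CPM in RA GFP-, at 120, 148 and 173 CPM in RA GFP+, and at 498, 470 and 456 CPM in SAG GFP+. The 3 groups did not overlap, and the lowest SAG library lay above the highest of all RA libraries. Celsr1 was higher in RA GFP+ than in RA GFP- by 1.21 (SE 0.18, adjusted p = 0.000807), in SAG GFP+ than in RA GFP+ by 1.69 (SE 0.18, adjusted p = 5.57e-05), and in SAG GFP+ than in RA GFP- by 2.90 (SE 0.19, adjusted p = 1.39e-06), a 7.45-fold difference. Without RA GFP- replicate 1, the library with low levels of long genes, the first and last values were 1.08 (adjusted p = 0.00322) and 2.79.

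Celsr3 (ENSMUSG00000023473, chromosome 9, 108826320 to 108852969), known for axon guidance, stood at 10.5, 22.0 and 22.5 CPM in RA GFP-, at 6.70, 8.44 and 7.25 CPM in RA GFP+, and at 52.9, 40.9 and 36.9 CPM in SAG GFP+. The groups did not overlap, with RA GFP+ lowest and SAG GFP+ highest. Celsr3 was lower in RA GFP+ than in RA GFP- (-1.29, SE 0.27, adjusted p = 0.00681) and higher in SAG GFP+ than in RA GFP+ (2.54, SE 0.28, adjusted p = 7.45e-05) and RA GFP- (1.25, SE 0.27, adjusted p = 0.00467). Without RA GFP- replicate 1 the values against RA GFP- were -1.57 (adjusted p = 0.000667) and 0.99 (adjusted p = 0.00476).

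Celsr2 (ENSMUSG00000068740, chromosome 3, 108390851 to 108415552, minus strand), which acts with Celsr3 in the ependyma, stood at 149, 292 and 350 CPM in RA GFP-, at 124, 146 and 165 CPM in RA GFP+, and at 299, 377 and 384 CPM in SAG GFP+. SAG GFP+ lay above RA GFP+, and RA GFP- replicate 1 fell among the RA GFP+ libraries. Celsr2 was higher in SAG GFP+ than in RA GFP+ (1.28, SE 0.25, adjusted p = 0.0035) and differed by 0.42 from RA GFP- (adjusted p = 0.232). It was lower in RA GFP+ than in RA GFP- (-0.86, SE 0.25, adjusted p = 0.036). Leaving out RA GFP- replicate 2 (-0.78, 0.107) or 3 (-0.60, 0.129), or RA GFP+ replicate 1 (-0.76, 0.125) or 2 (-0.86, 0.104), ended that call. Without RA GFP- replicate 1 it was -1.14 (adjusted p = 0.00142), and the range over the alternatives was 1.68e-05 to 0.129.

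**Figure D5:**
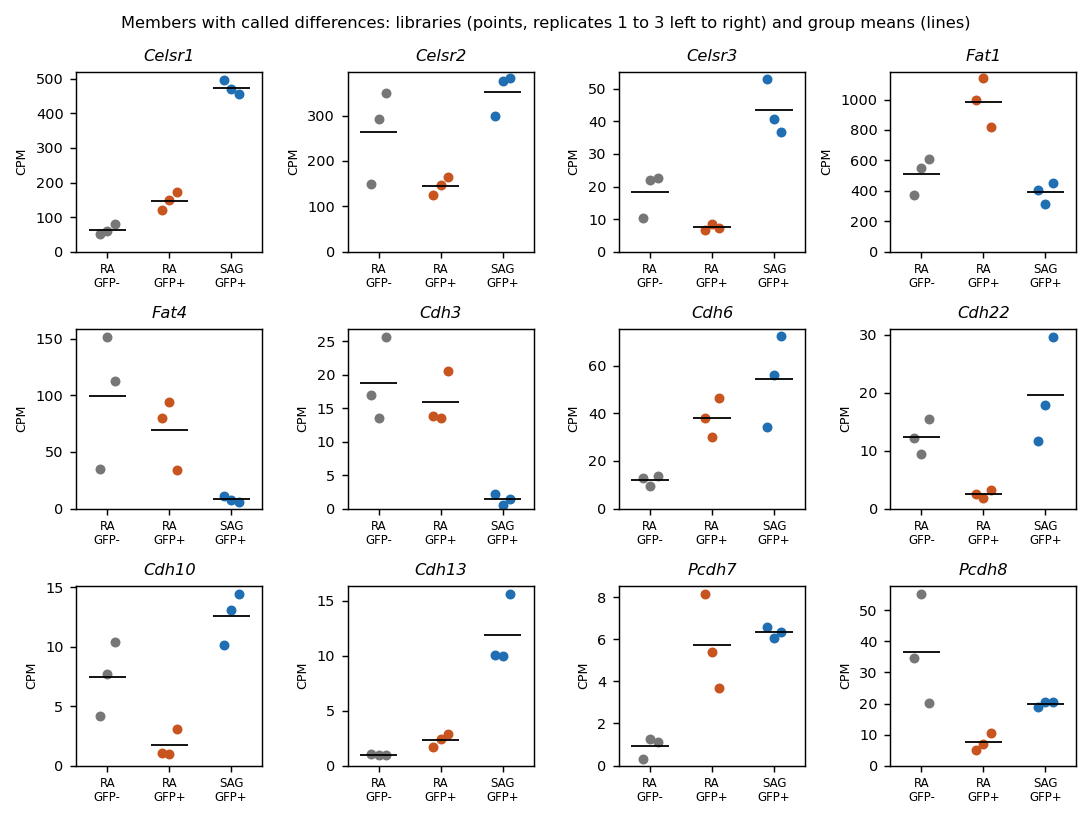
CPM (vertical axes, from 0) of 12 members with called differences in the 9 libraries, with 1 point per library and a line at the mean of each group. Celsr1 and Cdh13 rise from RA GFP- to RA GFP+ to SAG GFP+, Cdh22, Cdh10 and Pcdh8 are lowest in RA GFP+, and Fat4 and Cdh3 are lowest in SAG GFP+.

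Fat1 (ENSMUSG00000070047, chromosome 8, 44935447 to 45052257), an atypical cadherin that regulates actin and Hippo signalling, was the gene with the highest CPM of the 35 in RA GFP- and in RA GFP+. Fat1 stood at 375, 548 and 609 CPM in RA GFP-, at 995, 1140 and 818 CPM in RA GFP+, and at 403, 314 and 449 CPM in SAG GFP+. RA GFP+ lay above both other groups, which overlapped. Fat1 was higher in RA GFP+ than in RA GFP- by 0.95 (SE 0.20, adjusted p = 0.0064), and by 0.77 (adjusted p = 0.0177) without RA GFP- replicate 1. It was lower in SAG GFP+ than in RA GFP+ (-1.34, SE 0.20, adjusted p = 0.000535), a 2.53-fold difference. SAG GFP+ differed from RA GFP- by -0.39 (adjusted p = 0.154), and by -0.55 (adjusted p = 0.0469) without RA GFP- replicate 1, in a range of 0.0469 to 0.465.

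Fat4 (ENSMUSG00000046743, chromosome 3, 38886940 to 39011985), the receptor that binds Dchs1, stood at 34.9, 151 and 112 CPM in RA GFP-, at 79.7, 94.5 and 34.4 CPM in RA GFP+, and at 11.5, 7.31 and 5.92 CPM in SAG GFP+. The SAG libraries lay below all RA libraries, and the RA groups overlapped widely. Fat4 was lower in SAG GFP+ than in RA GFP+ by 8.45-fold (log2 fold change -3.08, SE 0.52, adjusted p = 0.00129) and than in RA GFP- (-3.60, SE 0.53, adjusted p = 0.000462). Between the RA groups it differed by -0.52 (adjusted p = 0.513). Fat3, a neuronal Fat cadherin, was at 35.2 to 96.0 CPM in RA GFP-, 37.1 to 123 CPM in RA GFP+ and 71.8 to 153 CPM in SAG GFP+, and passed the test in none of the comparisons (0.17, 0.63 and 0.80, adjusted p = 0.838, 0.326 and 0.195). Fat2, the Fat cadherin of cerebellar granule cells and skin, had 0, 8 and 36 counts in RA GFP-, 10, 1 and 23 in RA GFP+, and 0 in every SAG library. Its level ran from 0 to 1.37 CPM in RA GFP- and from 0.0336 to 0.802 CPM in RA GFP+, and replicate 3 held most of the counts in each. It was at least 10.4-fold lower in SAG GFP+ than in RA GFP+ (adjusted p = 0.08, range 0.000664 to 0.175), or at least 5.10-fold when RA GFP+ replicate 3 was left out (adjusted p = 0.175). Fat2 was at least 14.0-fold lower in SAG GFP+ than in RA GFP- (adjusted p = 0.0524, range 0.000167 to 0.162), or at least 3.76-fold when RA GFP- replicate 3 was left out (adjusted p = 0.162). Both differences passed the test without RA GFP- replicate 1 (0.0401 and 0.0249), with no low-count filter (0.000664 and 0.000167) and with DESeq2 (0.00819 and 0.00358), and that from RA GFP- also when RA GFP+ replicate 2 was left out (0.0442).

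Of the Dachsous cadherins, ligands of the Fat receptors, Dchs1 passed the test in none of the comparisons and Dchs2 was higher under SAG. Dchs1 stood at 41.1, 63.7 and 65.9 CPM in RA GFP-, at 40.0, 61.4 and 68.5 CPM in RA GFP+, and at 61.8, 64.2 and 75.7 CPM in SAG GFP+, with differences of -0.01, 0.25 and 0.24 (SE 0.22 each, adjusted p = 0.991, 0.446 and 0.443). Dchs2 (ENSMUSG00000102692, chromosome 3, 83127948 to 83357209) stood at 0.459, 2.78 and 6.09 CPM in RA GFP-, at 4.23, 6.79 and 5.58 CPM in RA GFP+, and at 13.5, 26.2 and 25.7 CPM in SAG GFP+. The SAG libraries lay above all RA libraries. Dchs2 was higher in SAG GFP+ than in RA GFP- (2.81, SE 0.62, adjusted p = 0.0059), with 3.76 without RA GFP- replicate 3 and 2.32 (adjusted p = 0.00348) without RA GFP- replicate 1, in a range of 1.7e-11 to 0.0267. It was higher in SAG GFP+ than in RA GFP+ (1.97, SE 0.60, adjusted p = 0.0315, range 5.35e-07 to 0.105), and the call ended on leaving out RA GFP+ replicate 1 (0.105), 2 (0.0707) or 3 (0.0699), or SAG GFP+ replicate 2 (0.0876) or 3 (0.0847). The RA groups overlapped (0.84, adjusted p = 0.399), with 1.78 (adjusted p = 0.0691) when RA GFP- replicate 3 was left out, in a range of 0.0691 to 0.678. Antisense genes overlap 12.05% of the exon sequence of Dchs2 (41 counts against 2406) and 7.04% of that of Fat4 (35 counts against 14377).

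Genes that work with the cadherins gave the following counts. Beside each list below stand the shares of all tested genes called in the same comparisons, 16.9%, 24.5% and 28.5%. Of 14 tested catenins and adherens junction partners, 1 was higher and 1 lower in RA GFP+ against RA GFP-, 1 and 3 in SAG GFP+ against RA GFP+, and 2 and 3 in SAG GFP+ against RA GFP-. These made up 14.3%, 28.6% and 35.7% of this list, not far from the shares over all genes. Jup (plakoglobin) was lower in SAG GFP+ than in RA GFP+ (-1.17, adjusted p = 0.00029) and RA GFP- (-1.26, adjusted p = 0.000148), and Ctnna2, the neural alpha-catenin, was higher in SAG GFP+ than in RA GFP+ (2.02, adjusted p = 0.000838). Nectin2 was lower in SAG GFP+ than in RA GFP- (-0.68, adjusted p = 0.00575). Between the RA groups, Ctnnb1 (beta-catenin) was higher in RA GFP+ (0.47, adjusted p = 0.0109, lost at 0.0555 without RA GFP+ replicate 2) and Ctnnd2 lower (-1.21, adjusted p = 0.0127), the latter at 0.0549 without RA GFP- replicate 2 and at 0.0547 without RA GFP+ replicate 2.

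Of 20 planar cell polarity partners of the Celsr genes, 7 were higher and 0 lower in RA GFP+ against RA GFP-, 4 and 3 in SAG GFP+ against RA GFP+, and 8 and 1 in SAG GFP+ against RA GFP-. The core component Prickle1 was higher than in RA GFP- by 1.98 in RA GFP+ (adjusted p = 0.000134) and 2.01 in SAG GFP+ (adjusted p = 5.27e-05), and Vangl1 by 1.17 in RA GFP+ (adjusted p = 0.000717). Ankrd6 (diversin) was higher in SAG GFP+ than in RA GFP+ (1.17, adjusted p = 0.000114) and RA GFP- (1.18, adjusted p = 8.84e-05), and Dact1 was lower in SAG GFP+ than in RA GFP+ (-1.67, adjusted p = 0.000452).

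Among 10 tested of 22 further cadherin superfamily genes, 2 were higher and 1 lower, 1 and 4, and 3 and 4 in the same 3 comparisons. The desmosomal Dsc2 was higher in RA GFP+ than in RA GFP- (1.42, adjusted p = 0.00173) and lower in SAG GFP+ than in RA GFP+ (-2.46, adjusted p = 3.96e-05). Dsg2, its desmosomal partner, was lower in SAG GFP+ than in RA GFP- (-2.42, adjusted p = 0.000719, with -3.09 without SAG GFP+ replicate 1), the photoreceptor cadherin Cdhr1 was lower in RA GFP+ than in RA GFP- (-3.27, adjusted p = 0.000653), and Pcdh11x was higher in SAG GFP+ than in RA GFP+ (3.87, adjusted p = 0.000532, with 4.5 without RA GFP+ replicate 3). The calsyntenin Clstn2 was higher in SAG GFP+ than in RA GFP- (3.46, adjusted p = 0.000436, with 4.18 without RA GFP- replicate 2).

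Of 10 transcription factors known from epithelial to mesenchymal transition, several of which repress Cdh1, 2 were higher and 1 lower, 1 and 2, and 5 and 1 in the 3 comparisons. Zeb2, which is also a neural progenitor and neuron factor, was higher in SAG GFP+ than in RA GFP+ (2.46, adjusted p = 0.000183) and RA GFP- (1.59, adjusted p = 0.00209). Foxc2 was higher in RA GFP+ than in RA GFP- (3.96, adjusted p = 0.000152) and lower in SAG GFP+ than in RA GFP+ (-1.93, adjusted p = 0.00408), and Snai3 was lower in SAG GFP+ than in RA GFP- (-3.27, adjusted p = 0.00433). Snai3 was also lower in RA GFP+ than in RA GFP- (-2.09, adjusted p = 0.0391), a call that ended on leaving out RA GFP- replicate 1 (0.13) or 3 (0.0826), RA GFP+ replicate 1 (0.137) or 2 (0.153), or SAG GFP+ replicate 2 (0.0539), and that stood at -2.81 (0.0241) without RA GFP+ replicate 3.

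Of 7 tested epithelial transcription factors, 0 were higher in any comparison, with 4 lower in RA GFP+ against RA GFP-, 3 in SAG GFP+ against RA GFP+ and 5 in SAG GFP+ against RA GFP-. Elf3 was lower in each (-1.78, -1.48 and -3.27, adjusted p = 0.000296, 0.000682 and 3.62e-06), Klf5 in the first (-1.78, adjusted p = 0.00124), and Grhl3 in SAG GFP+ against RA GFP- (-3.36, adjusted p = 4.52e-05) and against RA GFP+ (-1.28, adjusted p = 0.0175, lost without RA GFP+ replicate 2 at 0.0768 or SAG GFP+ replicate 2 at 0.0709 or 3 at 0.0569). Klf5, with Klf4 of this list, is also a gene of pluripotent cells. The summed level of 10 pluripotency markers was 1030 to 1620 CPM in RA GFP-, 66.4 to 81.3 CPM in RA GFP+ and 69.3 to 243 CPM in SAG GFP+, 10 of 10 being lower in each GFP+ group than in RA GFP-. None of the 10 was at 0 in a group, and their part in any member's difference from RA GFP- was not tested. Of 7 tested genes that cleave or process cadherins, 5 were higher and 0 lower, 0 and 2, and 3 and 0. The metalloprotease Mmp14 gave 2.21, -1.01 and 1.20 (adjusted p = 5.52e-05, 0.00398 and 0.0013), the convertase Furin 1.61 and -1.44 in the first 2 comparisons (adjusted p = 0.000137 and 0.000158), and the cadherin sheddase Adam10 0.66 in the last (adjusted p = 0.00753).

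The remaining cell type lists checked the labelled tissue. The 8 floor plate markers summed to 190 to 268 CPM in RA GFP-, 763 to 1220 CPM in RA GFP+ and 887 to 1200 CPM in SAG GFP+, with 7 of 8 higher in RA GFP+ than in RA GFP-. The 7 neural crest markers summed to 67.0 to 71.4, 64.4 to 73.1 and 36.6 to 53.2 CPM. The 8 endoderm markers summed to 37.4 to 43.3 CPM in RA GFP-, with Afp and Ttr at 0, to 65.5 to 114 CPM in RA GFP+, and to 37.4 to 79.4 CPM in SAG GFP+, with Afp at 0. Markers of neural progenitors and floor plate were thus present in the groups labelled as neural tube organoid.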

How the data were processed

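The authors deposited raw counts per Ensembl gene for 9 poly(A) RNA-seq libraries, 3 biological replicates in each of 3 groups. The submitters' processing notes name GRCm38, featureCounts of Subread 1.6.2, Bowtie2 2.3.4.1 and Trim Galore 0.5.0. The counting's strand setting and annotation release are not stated, so reads of overlapping opposite-strand genes may not be told apart, although the library kit was directional per the labels' protocols. Gene names came from the annotation of the same build.

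All 9 libraries were fitted together to these counts in edgeR 4.0.16 under R 4.3.3: TMM scaling, filterByExpr with a minimum count of 10 (16772 genes kept), quasi-likelihood tests, Benjamini-Hochberg adjustment, threshold 0.05. The biological coefficient of variation was 0.226. SE is the log2 fold change divided by the square root of F. Floors use 3 counts over a group. The test was checked on simulated counts.

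Alternatives were RLE size factors, no TMM, no filter, only the libraries compared, DESeq2 1.42.0, a replicate block and leaving out each library. Deviations from group means correlated between same-numbered RA libraries (r = 0.273, 0.307 and 0.347 across genes), so the replicate block took their numbers as pairs. The main tests, which gave the calls reported above, had no such block and did not use this pairing. Whether these are separate cultures is not stated, and p-values measure the spread between these libraries, which may be technical.

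The members, gene lists and tests were chosen with earlier results of these data known. Named non-members are Foxa2 and, per pathway list and comparison, the 2 called genes with the smallest adjusted p. Epcam, Cldn6, Krt19, Pou5f1, Zfp42, Esrrb, Tcl1, Utf1 and Pecam1 were named after their values were seen.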

Additional observations from a re-analysis of the deposited data

How the results depend on the processing

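Over 32 tested members, 3 comparisons and 15 alternatives, 1430 values could be fitted, of which 1320 kept their direction and side of the threshold, 35 lost and 52 gained a call, and 23 changed sign. With a replicate block, the calls in RA GFP+ against RA GFP- were 5240 of all genes instead of 2838, and ran from 1783 (without RA GFP+ replicate 2) to 3368 when 1 library was left out. In the SAG comparisons same-numbered libraries share only a number: r was 0.111, -0.0816 and 0.182 with RA GFP+ and 0.175, -0.0218 and 0.242 with RA GFP-, and not every library correlated best with its own number. There the block gave 4552 instead of 4117 and 4716 instead of 4787 calls over all genes, and 17 called members instead of 17 (Fat3 gained, and Cdh5 could not be fitted) and 20 instead of 16 (Cdh2, Cdh10, Cdh11 and Fat3 gained). Members lower in SAG GFP+ against RA GFP- were 7, but 11 with no low-count filter and 11 with DESeq2; the cause was not tested. With no filter and with DESeq2 every called member was called again, and members called were 19 and 17 instead of 14 between the RA groups, 23 and 21 instead of 17 in SAG GFP+ against RA GFP+, and 23 and 20 instead of 16 against RA GFP-. Per kb of the longest transcript Cdh2 held 24.3, 18.4 and 25.5% instead of 17.3, 12.7 and 18.3%. Sign changes concerned values that passed no test. Leaving out 1 library at a time, values in RA GFP+ against RA GFP- ran from -0.45 to 0.07 for Cdh3, -0.51 to 0.03 for Cdh4, -1.4 to 1.42 for Fat2, -0.31 to 0.51 for Fat3 and -0.19 to 0.19 for Dchs1, which was 0.01 with no filter. In SAG GFP+ against RA GFP+ they ran from -0.43 to 0.36 for Pcdh1, -0.1 to 0.47 for Pcdh7 and -1.08 to 0 for Pcdh10. In SAG GFP+ against RA GFP- they ran from -0.79 to 0.35 for Cdh1, -0.4 to 0.25 for Pcdh9 and -0.63 to 0.22 for Pcdh19. For members under about 1 CPM few counts stand behind a value, and absence was not detectable at this depth.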
